A study of Mus musculus with 18 samples.

Results

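The Reg family of secreted C-type lectins was described across mouse mammary tumors and normal mammary glands. The family comprised the 7 genes named Reg3b, Reg3g, Reg3a, Reg3d, Reg1, Reg2 and Reg4 among the 55450 genes counted. The family was selected on the fold change of Reg3b, the gene with the largest rise in B1/P/Rbf when set against B1/P, so every value of a Reg gene in B1/P/Rbf tumors is given as a description, without a test. RNA was sequenced from 5 B1/P/Rbf tumors (Brca1fl/fl/Trp53fl/fl/TgK18GT121Tg/+), 5 B1/P tumors (Brca1fl/fl/Trp53fl/fl), 5 P/Rbf tumors (Trp53fl/fl/TgK18GT121Tg/+) and 3 wild type normal glands. All 18 samples came from different female mice, so the mouse was the replicate, and tumors are named here by the mouse numbers of the labels. By the paper, the floxed Brca1 and Trp53 lines were obtained on another background and then bred into C57Bl/6 J. The transgenic line was kept on C57Bl/6 J, and the paper calls the normal glands strain-matched. The tumors were induced by an adenovirus carrying Cre under the CMV promoter, injected into the mammary ducts of adult females. All 3 tumor models therefore share Cre exposure and floxed Trp53, whereas the normal glands are wild type and are not stated to have received virus. The TgK18GT121 transgene expresses T121, an amino-terminal fragment of the SV40 large T antigen, from the keratin 18 promoter in epithelial cells, where T121 binds and inactivates pRb, p107 and p130 (together Rbf). Ages at collection are not given in the labels.

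Reg genes encode small secreted proteins built around a single lectin fold. Reg3b and Reg3g are best known as bactericidal lectins of the gut lining, where they are induced through the IL-22 receptor and STAT3 and by other cytokines of the IL-6 and IL-17 families. Reg1 and Reg2 were first described in the pancreas, where acinar cells release them after injury, and Reg4 is found in endocrine and goblet cells of the gut. The exostosin-like protein Extl3 has been proposed as a cell surface receptor for Reg proteins. Reg proteins are not among the usual products of the mammary gland.

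The libraries held 27661173 to 37794889 expected counts, and 1 count corresponded to 0.0251 to 0.0391 CPM, the counts scaled to a common library size. Libraries were scaled with edgeR's TMM factors, which lay between 0.952 and 1.11 in tumors and between 0.788 and 0.858 in glands. Trp53 had 6.75 to 24.3 CPM in the 15 tumors and 54.4 to 71.8 CPM in the glands, without overlap. Brca1, counted over the whole gene, had 8.13 to 45.0 CPM in tumors with floxed Brca1, 44.9 to 116 CPM in P/Rbf tumors and 4.61 to 5.99 CPM in glands. The highest value with floxed Brca1 was that of B1/P/Rbf tumor 208863, which reached the lowest P/Rbf tumor, while the other 9 tumors with floxed Brca1 had at most 27.95 CPM, so calls named here that were lost without tumor 208863 are stated. The paper reports only partial loss of Brca1 by RT-qPCR in that tumor. The epithelial marker Epcam was present in every sample, at 260 to 1115 CPM in tumors and 197 to 215 CPM in glands. The normal glands also held other tissues: the sum of 5 skeletal muscle markers was 21780 to 42840 CPM in glands and at most 581 CPM in any tumor, and the sum of 5 adipocyte markers was 9182 to 13250 CPM in glands and at most 172 CPM in any tumor. The sum of 8 lymphocyte markers was 382 to 529 CPM in glands and at most 36.2 CPM in any tumor, and 8 of 8 were called lower than in gland in each tumor group, where the share of all genes called lower was 20.0% for B1/P/Rbf, 16.9% for B1/P and 20.3% for P/Rbf tumors (7 of 8 for B1/P/Rbf without tumor 208863). Markers of Th17 and group 3 innate lymphoid cells, on a list of 6, summed to 44.3 to 66.99 CPM in glands and 1.996 to 85.5 CPM in tumors. The part of these tissues in comparisons with normal gland was not tested.

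Reg genes resemble each other, so it was first asked whether their reads could be told apart. The coding sequences of Reg3b and Reg3g were 76.0% identical, those of Reg3b and Reg3a 73.2%, and those of Reg3b and Reg3d 65.2%. The 90 coding bases from the start codon of each Reg3 gene (GENCODE M21) are shown to let the stretches that could share reads be seen. Capitals mark runs of at least 12 bases shared within these stretches with Reg3b or, for Reg3b, with Reg3g:
Reg3b: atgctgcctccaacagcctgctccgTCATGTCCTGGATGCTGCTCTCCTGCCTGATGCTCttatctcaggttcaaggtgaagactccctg
Reg3g: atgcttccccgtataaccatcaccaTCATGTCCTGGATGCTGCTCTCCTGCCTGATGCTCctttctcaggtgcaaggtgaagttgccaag
Reg3a: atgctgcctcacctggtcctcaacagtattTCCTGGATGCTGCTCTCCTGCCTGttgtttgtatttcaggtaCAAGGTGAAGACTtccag
Reg3d: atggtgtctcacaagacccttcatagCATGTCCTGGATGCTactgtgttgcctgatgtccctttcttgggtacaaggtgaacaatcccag

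The run of 35 bases from coding position 26 was the longest that Reg3b and Reg3g shared anywhere in their representative transcripts. The longest run that Reg3b shared with Reg3a was 24 bases, and with Reg1, Reg2 or Reg4 it was 9 bases. None of the 734 windows of 50 bases in the Reg3b transcript occurred in another Reg gene or in a transcript of any other gene. The same count of 0 was found for the 722 windows of Reg3g, the 776 of Reg3a, the 733 of Reg3d, the 720 of Reg1, the 649 of Reg2 and the 972 of Reg4. RSEM, which made the counts, divides a read that matches several genes, and this leaves fractions. All 126 values of the 7 genes in 18 samples were whole numbers, while 5.61% of all values in the file were not.

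Of the 7 genes, 6 lie in 1 cluster on chromosome 6 (GRCm38, chr6:78370657-78468872, 98.2 kb), and no other annotated gene lies inside it. In chromosome order they are Reg3b (ENSMUSG00000071356.7, chr6:78370657-78373466, + strand), Reg3d (ENSMUSG00000068341.8, chr6:78375874-78378865, − strand), Reg3a (ENSMUSG00000079516.2, chr6:78380709-78383827, + strand), Reg2 (ENSMUSG00000023140.4, chr6:78395623-78408106, + strand), Reg1 (ENSMUSG00000059654.7, chr6:78422711-78428667, + strand) and Reg3g (ENSMUSG00000030017.2, chr6:78466269-78468872, − strand). Reg3b, Reg3d and Reg3a fall within 13.2 kb, whereas Reg3g lies 82.4 kb beyond the end of Reg3a. Reg4 (ENSMUSG00000027876.4, chr3:98222156-98236748, + strand) stands alone on chromosome 3. The representative transcript of each gene has 6 exons, and the proteins they encode have 157 to 175 residues.

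The bases upstream of the RefSeq starts of Reg3b and Reg3g are shown because these genes lie at opposite ends of the cluster and were the most abundant members. Each window holds 150 bases of GRCm38.p6 from the RefSeq promoter table, in which all 7 genes were matched, on the strand of the gene. No window holds an annotated exon. The Reg3b window (chr6:78370711-78370860, + strand) ends 25 bases before the RefSeq start, next to the first exon of the representative transcript, and lies in the first intron of another annotated transcript that starts further upstream. The Reg3g window (chr6:78468875-78469024, − strand) ends 1 base before the RefSeq start. Capitals mark runs of at least 10 bases that both windows hold:
Reg3b: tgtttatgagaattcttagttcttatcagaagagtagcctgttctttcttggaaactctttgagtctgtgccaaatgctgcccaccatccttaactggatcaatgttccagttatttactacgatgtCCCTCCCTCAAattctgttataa
Reg3g: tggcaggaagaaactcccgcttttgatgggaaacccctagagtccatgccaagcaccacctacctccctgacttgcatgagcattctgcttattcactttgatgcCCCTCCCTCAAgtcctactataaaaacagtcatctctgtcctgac

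The shared run CCCTCCCTCAA began 47 bases before the start of Reg3b and 45 bases before that of Reg3g. On either strand it occurred in 18 of 32851 RefSeq windows of 250 bases before a start (0.0548%), and it was looked for only after it had been seen in both genes. The last 20 bases of the Reg3g window, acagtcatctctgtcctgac, also stood directly before the RefSeq start of Reg3b, inside an annotated exon of that gene, and no window other than these 2 held them (0.00609% of 32851). A TATA box (TATAAA on either strand) was found in the windows of Reg3b, Reg3g, Reg1 and Reg2, each 27 to 30 bases before the start on the gene's strand, and in 12.4% of all windows. In Reg3g a second match lay on the opposite strand, 161 bases before the start. The general STAT motif TTCNNNGAA, which reads the same on both strands, matched Reg3b at 129 bases before the start (ttcttggaa) and Reg3d at 238 bases (ttcccagaa), and 7.02% of all windows held it. The stricter form TTCCNGGAA, a subset of the first, matched none of the 7 genes and 0.913% of all windows. A match is a string of letters and was not tested as a binding site.

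Reg3b, the gene that led to the choice of the family, was high in B1/P/Rbf tumors and close to absent elsewhere. Its level in B1/P/Rbf tumors 208855, 208857, 208863, 209490 and 210906 was 434, 182, 64.0, 1.57 and 18.5 CPM. The highest and the lowest of these tumors thus differed 276-fold. Expected counts were 15287, 6764, 2321, 62 and 570. Among B1/P tumors Reg3b had 1 count in tumor 255232 and none in the other 4, and it had no count in any of the 3 glands. P/Rbf tumors 287842, 287845, 290860, 287822 and 290845 had 5, 3, 5, 0 and 11 counts, or 0.144, 0.0946, 0.127, 0 and 0.374 CPM. All 5 values of the B1/P/Rbf group exceeded those of the 13 other samples. Its mean was 947-fold and its median 506-fold that of P/Rbf tumors, whose values rest on 0 to 11 counts each, a comparison in which 0.219% of all genes were called higher and 0.0625% lower. A bulk sample cannot tell whether fewer cells carried the transcript or each cell carried less.

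Reg3g, the other gut lectin of the family, was detected in all 18 samples. B1/P/Rbf tumors, in the same order, had 208, 308, 235, 3.91 and 103 CPM, a 78.8-fold range. B1/P tumors 225068, 225070, 246361, 255232 and 248662 had 0.159, 1.54, 1.13, 0.177 and 0.0315 CPM. The values of all 5 B1/P tumors lay below those of all 5 B1/P/Rbf tumors, and 7.36% of all genes were called higher in that contrast, which chose the family. P/Rbf tumors, in the order given for Reg3b, had 4.31, 1.45, 0.177, 0.158 and 88.6 CPM. P/Rbf tumor 290845, with 2603 counts, thus lay in the range of the B1/P/Rbf tumors, and B1/P/Rbf tumor 209490 lay below 2 of the P/Rbf tumors. Normal glands 330154, 330155 and 330156 had 0.860, 0.556 and 0.339 CPM, so a low level of Reg3g was present in normal tissue. The ratio of B1/P/Rbf to P/Rbf tumors was 9.06 by the means and 143 by the medians, because the P/Rbf mean rests on tumor 290845.

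**Figure D1:**
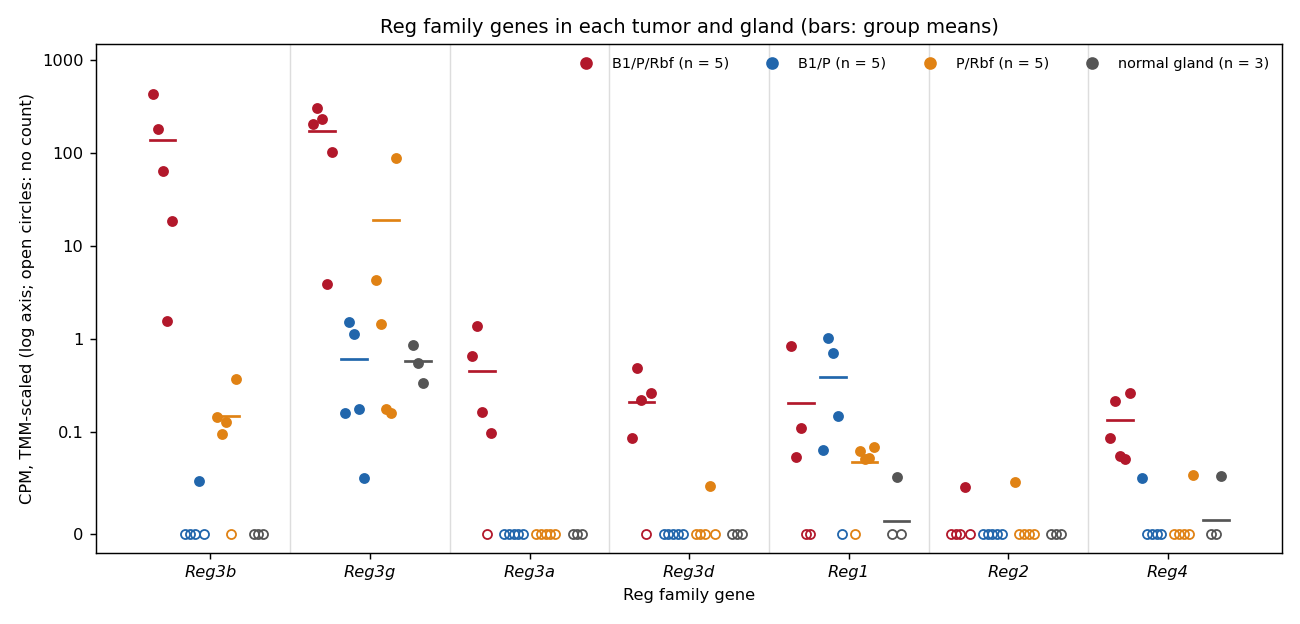
Level of each Reg gene in each of the 18 samples, in TMM-scaled CPM on a log axis, by group; open circles stand for samples without a count and horizontal bars for group means of 0.01 CPM or more. Reg3b and Reg3g reach 434 and 308 CPM in B1/P/Rbf tumors, Reg3g reaches 88.6 CPM in P/Rbf tumor 290845, and no other member exceeds 1.38 CPM.

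Reg3a and Reg3d, the nearest neighbours of Reg3b, were seen at trace levels in the same tumors. Reg3a had 23, 51, 6, 0 and 3 counts in the 5 B1/P/Rbf tumors and no count in the 13 other samples. Its highest level was 1.38 CPM, in tumor 208857. Reg3d had 3, 18, 8, 0 and 8 counts in B1/P/Rbf tumors, at most 0.486 CPM, and otherwise 1 count in P/Rbf tumor 287822. Both were without a count in B1/P/Rbf tumor 209490, the tumor with the least Reg3b and Reg3g. A count of 0 allows a level of up to 3 counts, or 0.0754 to 0.117 CPM in these libraries, by counting error alone.

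Reg1, a pancreatic acinar product, did not follow Reg3b across the groups, although its order among the B1/P tumors was that of Reg3g. It had 30, 2, 4, 0 and 0 counts in B1/P/Rbf tumors, or 0.851, 0.0540, 0.110, 0 and 0 CPM. B1/P tumors had 2, 35, 28, 5 and 0 counts, or 0.0636, 1.04, 0.704, 0.148 and 0 CPM. P/Rbf tumors had at most 2 counts each, and a single count was found among the glands. The highest Reg1 level was therefore in B1/P tumor 225070, which had no Reg3b, and no B1/P/Rbf tumor lay above all B1/P tumors. Reg2, its closest relative in the family (78.8% identity of the coding sequence), had 1 count in B1/P/Rbf tumor 209490, 1 in P/Rbf tumor 287842 and none elsewhere.

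Reg4, which lies outside the cluster, was near the limit of detection. B1/P/Rbf tumors had 3, 8, 2, 2 and 8 counts, or 0.0851, 0.216, 0.0551, 0.0507 and 0.260 CPM. No other sample had more than 1 count, and single counts were found in B1/P tumor 225068, P/Rbf tumor 290845 and gland 330156. The 5 B1/P/Rbf tumors held 23 counts of Reg4 together, against 3 in the 13 other samples, although 2 counts differ little from 1.

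**Figure D2:**
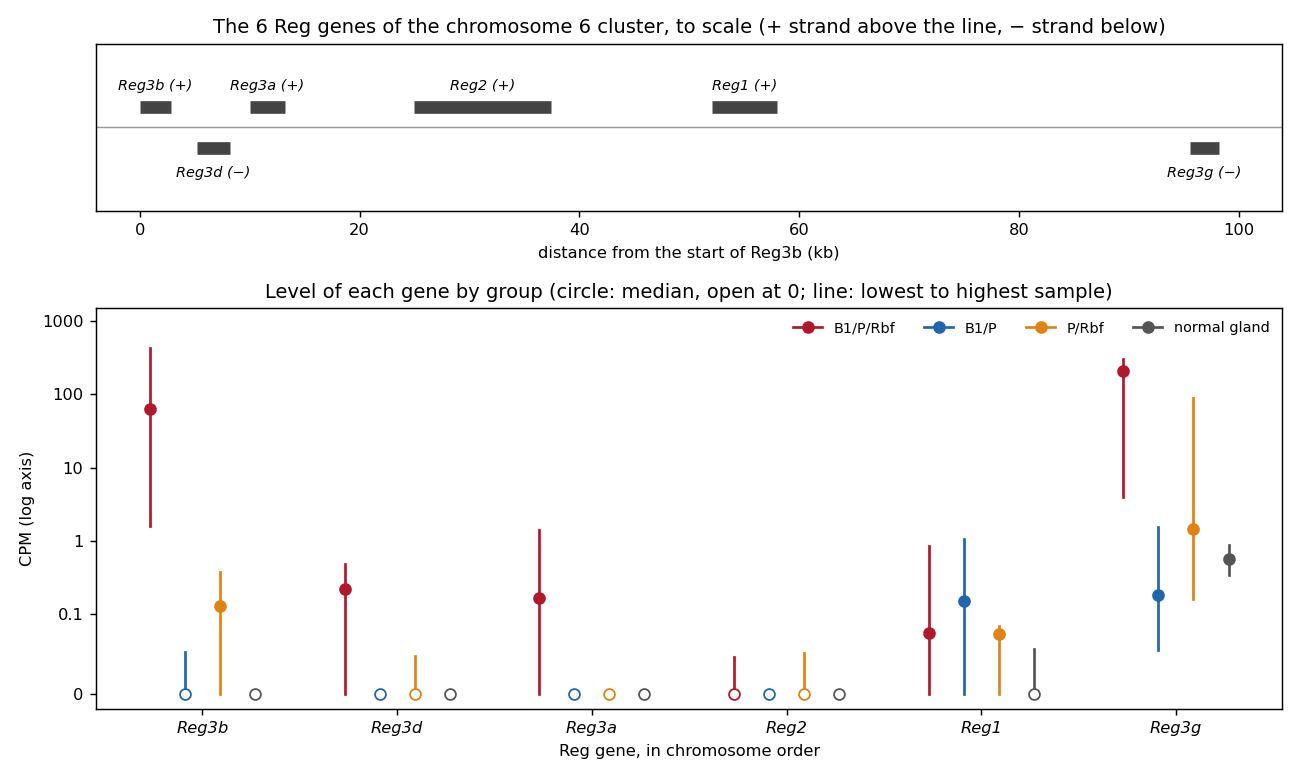
Top, the 6 Reg genes of chromosome 6 drawn to scale by distance from the start of Reg3b in kb, with + strand genes above the line and − strand genes below it. Bottom, level of each gene by group in TMM-scaled CPM on a log axis (circle, median; line, lowest to highest sample): both ends of the cluster, Reg3b and Reg3g, have B1/P/Rbf medians of 64.0 and 208 CPM, while the 4 genes between them have medians of at most 0.221 CPM in every group.

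To compare the members per length, CPM were divided by the kb of coding sequence. Reads also fall on the rest of the transcript, so this footing is approximate. Reg4 has 471 coding bases in a transcript of 1021, against 525 of 783 for Reg3b, which sets Reg4 too high relative to Reg3b. On this scale Reg3g had a mean level of 329 ± 228 and Reg3b 267 ± 340 CPM per kb in B1/P/Rbf tumors (SD, n = 5), a difference within their spread. Reg3a followed with 0.873 ± 1.09, Reg1 with 0.410 ± 0.738, Reg3d with 0.400 ± 0.354, Reg4 with 0.283 ± 0.207 and Reg2 with 0.00977 ± 0.0219 CPM per kb. The ranges of Reg3a, Reg1, Reg3d and Reg4 overlapped one another. In B1/P tumors Reg3g had 1.16 ± 1.31 and Reg1 0.789 ± 0.923 CPM per kb, again with overlapping ranges, and the remaining members were at or below 1 count in every tumor. In P/Rbf tumors Reg3g led with a median of 2.78 CPM per kb, above Reg3b at 0.241 and Reg1 at 0.106. In normal glands Reg3g had 1.12 ± 0.502 CPM per kb (SD, n = 3), and no other member exceeded 1 count.

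Reg3b and Reg3g together made up 98.6% to 99.8% of all Reg counts in each B1/P/Rbf tumor, but in unequal parts. The share of Reg3b among the counts of both was 67.6% in tumor 208855 (exact 95% interval 67.0% to 68.2%), 37.2% in 208857 (36.5% to 37.9%), 21.4% in 208863 (20.6% to 22.2%), 28.7% in 209490 (22.8% to 35.2%) and 15.2% in 210906 (14.1% to 16.4%). None of these 5 intervals overlapped another, and they cover counting error only. In P/Rbf tumor 290845 the share of Reg3b was 0.421% (0.210% to 0.752%), although its Reg3g level was close to that of B1/P/Rbf tumor 210906, at 88.6 and 103 CPM. P/Rbf tumor 287842 had a share of 3.23% (1.06% to 7.37%). P/Rbf tumors 287845 and 290860, with only 3 and 5 counts of Reg3b, had shares of 6.12% (1.28% to 16.9%) and 41.7% (15.2% to 72.3%). The last of these lay within the range of the B1/P/Rbf tumors. The ratio of Reg3g to Reg3b counts was thus 237 in tumor 290845 and 0.479 to 5.57 in the B1/P/Rbf tumors.

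**Figure D3:**
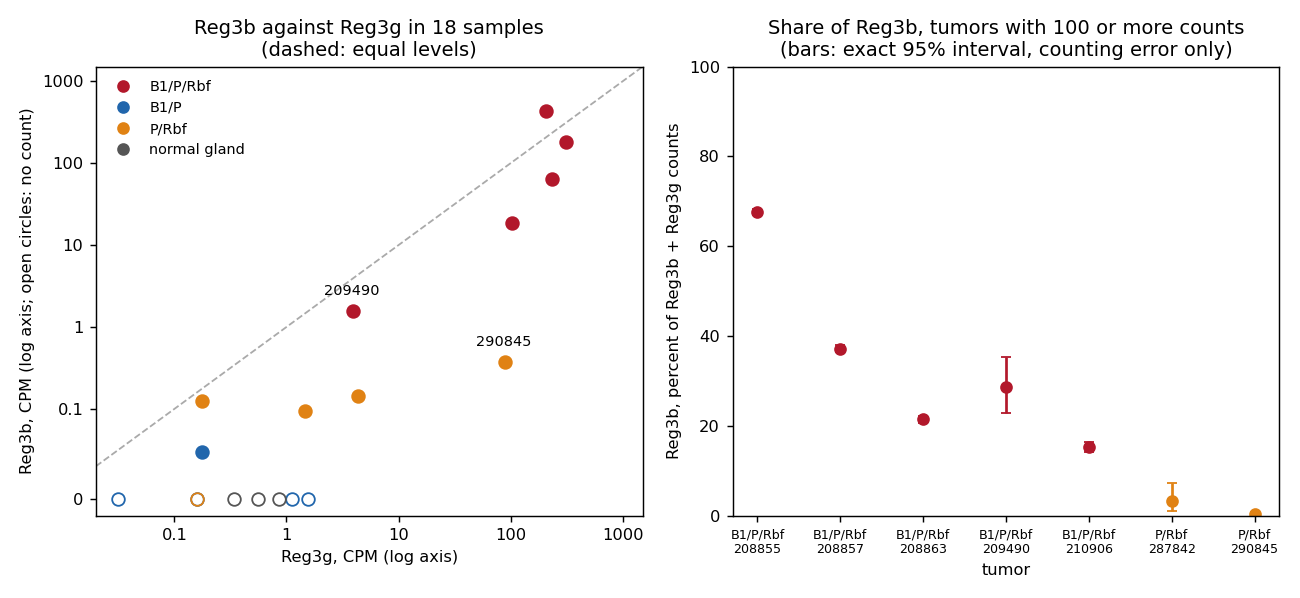
Left, Reg3b against Reg3g in 18 samples, both in TMM-scaled CPM on log axes (open circles, no Reg3b count; dashed line, equal levels). Right, percent of Reg3b among Reg3b and Reg3g counts in the 7 tumors with 100 or more such counts, with exact 95% intervals for counting error: the B1/P/Rbf tumors range from 15.2% to 67.6% and P/Rbf tumors 287842 and 290845 lie at 3.23% and 0.421%.

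In the tumor with the highest level, 208855, the 7 Reg genes made up 0.0673% of the library, and Reg3b ranked 269th of all genes by count. In the same tumor Reg3g ranked 842nd, and in tumor 208857 the ranks of Reg3b and Reg3g were 963 and 432. In tumor 209490, by contrast, the whole family made up 0.000592% of the library. The coefficient of variation of Reg3b over the 5 B1/P/Rbf tumors was 1.28, higher than that of 98.8% of the 10443 genes whose mean in this group was 10 CPM or more. That of Reg3g was 0.694, higher than 93.0% of these genes, whose median was 0.258. These values describe the group in which the family was chosen.

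Of the 7 genes, Reg3b, Reg3g and Reg1 passed the filter on low counts. Reg3b did so only through the B1/P/Rbf tumors, and Reg1 only through the 3 tumors with 28 to 35 counts, so their differences between the other groups are given without a test. Reg3g also passed in fits of the compared groups alone and was tested with edgeR's quasi-likelihood test in comparisons without B1/P/Rbf tumors, with p values adjusted by Benjamini-Hochberg over 19186 genes. The B1/P tumors were the low side of the choice of the family. Reg3g was called higher in P/Rbf than in B1/P tumors (18.9 ± 39.0 against 0.608 ± 0.682 CPM; SD, n = 5 each), where 8.43% of all genes tested were called higher. The log2 fold change, 4.94 with a standard error of 1.56, passed with an adjusted p of 0.0352 in edgeR. The P/Rbf values in 3 of 5 tumors, 1.45, 0.177 and 0.158 CPM, lay within the B1/P range. Without P/Rbf tumor 290845 the log2 fold change was 1.30 (adjusted p = 0.433 from edgeR), and the call was also lost without B1/P tumor 225068, 246361, 255232 or 248662, with adjusted p values of 0.0575 to 0.0728. It was not called when the compared groups alone were fitted (adjusted p = 0.102 from edgeR). Over all alternative fits the adjusted p ranged from 0.00056 to 0.448.

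Relative to normal gland, the log2 fold change of Reg3g in P/Rbf tumors was 5.02, with a standard error of 1.98. It missed the threshold (adjusted p = 0.0549 from edgeR), while 17.4% of all genes were called higher and 20.3% lower in this comparison. The gland values, 0.339 to 0.860 CPM, fell between those of the P/Rbf tumors, of which 3 lay above and 2 below all glands. With all samples kept, DESeq2 called the gene (adjusted p = 0.00162). Without tumor 290845 the log2 fold change was 1.38 (adjusted p = 0.435 from edgeR), and this tumor was left out with edgeR only. Between B1/P tumors and normal gland Reg3g had 0.608 ± 0.682 (n = 5) and 0.585 ± 0.262 CPM (n = 3). The log2 fold change was 0.08 with a standard error of 1.70, and edgeR gave an adjusted p of 0.978, where 16.8% of all genes were called higher. It was −0.58 without B1/P tumor 225070, −0.27 without B1/P tumor 246361 and −0.20 without gland 330156.

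Reg3b and Reg1 had few counts in these groups, and their differences are given as bounds against 3 counts in every sample of the group at or under that floor. The mean of Reg3b in P/Rbf tumors, 0.148 ± 0.138 CPM (SD, n = 5), was at least 1.67-fold higher than in B1/P tumors and at least 1.40-fold higher than in normal gland. These bounds rest on 24 counts in all, 11 of them in tumor 290845. The other P/Rbf tumors had 0 to 0.144 CPM, where the floor was 0.0886 CPM in B1/P tumors and 0.106 CPM in normal gland. Without tumor 290845 the P/Rbf mean lies below the gland floor and about at the B1/P floor, so both bounds depend on that tumor. The mean of Reg1 in B1/P tumors, 0.390 ± 0.457 CPM (SD, n = 5), was at least 4.46-fold higher than in P/Rbf tumors and at least 3.69-fold higher than in normal gland. Of its 70 counts in B1/P tumors, 35 were in tumor 225070 and 28 in tumor 246361, and the other 3 tumors had 0 to 5.

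The cytokine pathway known to induce Reg3 genes in the gut was measured in the same samples, with lists of 12 ligands, 12 receptors and 10 signal transducers. Of the ligands, Il22, Il17a, Il17f and Ifng did not pass the filter, and Il22, the main inducer of Reg3g in the gut, had 1 count in P/Rbf tumor 287822 and none in any other sample. In the contrast of B1/P/Rbf with B1/P none of the 8 ligands tested was called by edgeR, DESeq2 or limma-voom, and 0 had an unadjusted p under 0.05. Their median log2 fold change was 0.52, against −0.06 over all genes, of which 7.36% were called higher and 9.29% lower. Lif, a ligand of the IL-6 family, had 84.6 ± 32.4 CPM in B1/P/Rbf, 68.0 ± 72.1 in B1/P, 85.8 ± 79.1 in P/Rbf tumors (n = 5 each) and 6.00 ± 1.31 in glands (n = 3). All 3 tumor groups were called higher than gland for Lif, with log2 fold changes of 3.82 in B1/P/Rbf, 3.50 in B1/P and 3.84 in P/Rbf tumors (adjusted p = 0.0034, 0.00614 and 0.00318 from edgeR). The same held for Il1b, an inflammatory cytokine, with 5.50, 6.18 and 4.14 (adjusted p = 0.00188, 0.00114 and 0.00828 from edgeR). These calls were kept with any single sample left out, although in B1/P tumors the log2 fold changes of Lif and Il1b were 2.61 and 5.13 without tumor 225070, and that of Lif in P/Rbf tumors was 3.24 without tumor 287842. Against gland edgeR also called 4, 5 and 2 of 6 neutrophil markers higher in the same order (3 in B1/P/Rbf without tumor 208863). Macrophage markers gave 2, 5 and 1 of 7 higher, and 1 lower in P/Rbf tumors. The shares of all genes called higher were 17.1%, 16.8% and 17.4%. The part of these cells in the Il1b level was not tested.

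Between P/Rbf and B1/P tumors edgeR called 2 ligands, where 8.43% of all genes were called higher and 10.8% lower. Il33, an epithelial alarmin, and Il11, of the IL-6 family, were higher in P/Rbf tumors, with log2 fold changes of 3.48 and 4.29 (adjusted p = 0.0223 and 0.0128 from edgeR). The fold of Il11 rests on P/Rbf tumor 287845, without which it was 1.55 on the log2 scale and not called (adjusted p = 0.102 from edgeR). Il33 was not called without B1/P tumor 225068 or P/Rbf tumor 287822 (highest adjusted p = 0.0516 from edgeR). DESeq2 called both and also Il1b, which was lower, while limma-voom called no ligand. Il33 had 45.3, 5.94, 36.4, 236 and 132 CPM in the B1/P/Rbf tumors in the order given for Reg3b, so the tumor with the least Reg3b had the most Il33. Il33 was 76.5 CPM in P/Rbf tumor 290845, the lowest of its group, where Reg3g was highest. Il1b in the B1/P/Rbf tumors was 31.0, 15.9, 45.7, 3.65 and 4.97 CPM, and both tumors with the least Reg3b had the least Il1b.

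Among the 12 receptors, all of which were tested, edgeR called 1 lower and none higher in B1/P/Rbf against B1/P (median log2 fold change −0.28, with 3 higher and 3 lower at an unadjusted p under 0.05), where 7.36% of all genes were called higher and 9.29% lower. DESeq2 and limma-voom each called Il1r1 and Il18r1 higher. The gene called by edgeR was Il22ra2, the soluble decoy that binds IL-22, which was at least 3.74-fold lower (adjusted p = 0.048 from edgeR) and which limma-voom did not call. The bound rests on B1/P tumor 248662, without which it was at least 1.78-fold (adjusted p = 0.192 from edgeR), and the call was kept in 4 of 18 fits with a single sample left out. Without B1/P/Rbf tumor 208863 edgeR called no receptor. This transcript was low in all tumors, at most 0.977 CPM, against 3.76 to 5.35 CPM in glands. Il22ra1, the signalling chain of the IL-22 receptor, had 0.616 ± 0.428 CPM in B1/P/Rbf, 2.17 ± 2.12 in B1/P and 2.66 ± 2.76 in P/Rbf tumors, and was not called between tumors. Il6st, the chain shared by receptors of the IL-6 family, had 305 ± 111, 209 ± 67.4 and 226 ± 26.6 CPM and was not called either. Between P/Rbf and B1/P tumors Il1r1 was called higher (log2 fold change 1.39, adjusted p = 0.0214 from edgeR), and Osmr (−1.35, adjusted p = 0.0328) and Il22ra2 lower. In this comparison 8.43% of all genes were called higher and 10.8% lower. DESeq2 called the same receptors, whereas limma-voom did not call Il22ra2 and called Il18r1 higher as well. With single samples left out Il1r1 stayed called in 18 of 18 fits. Osmr was not called without B1/P tumor 225068 or 255232 or without P/Rbf tumor 287842, 290860, 287822 or 290845 (highest adjusted p = 0.0949 from edgeR). Il22ra2 was not called without B1/P tumor 246361 or 248662 or without P/Rbf tumor 287845, 287822 or 290845 (highest adjusted p = 0.111 from edgeR).

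Of the 10 signal transducers and feedback genes, the contrast of B1/P/Rbf with B1/P gave 2 calls higher and 2 lower (median log2 fold change 0.18), where 7.36% of all genes were called higher and 9.29% lower. Without B1/P/Rbf tumor 208863 there was 1 call in each direction, and Traf3ip2 and Cebpb were no longer called (adjusted p = 0.0572 for Cebpb from edgeR). Bcl3, a nuclear partner of NF-κB, rose by 1.33 on the log2 scale (standard error 0.20, adjusted p = 0.000599 from edgeR), with 78.1 to 130.4 CPM against 26.1 to 51.1 CPM and no overlap. Traf3ip2, the adaptor of the IL-17 receptor, had 1.09 (standard error 0.35, adjusted p = 0.0403 from edgeR) and was called in 10 of 18 fits with a single sample left out (adjusted p = 0.0209 to 0.0927). It was lost without B1/P/Rbf tumor 208857, 208863, 209490 or 210906 and without B1/P tumor 225068, 225070, 246361 or 255232. Cebpd and Cebpb, transcription factors of the acute phase response, fell by 2.13 and 1.16 on the log2 scale (adjusted p = 0.0136 and 0.023 from edgeR). Stat3 itself had 349 ± 52.2 CPM in the former and 350 ± 129 CPM in the latter (adjusted p = 0.997 from edgeR). Its target and inhibitor Socs3 had 79.0 ± 20.2 and 131 ± 32.1 CPM and was not called (adjusted p = 0.15 from edgeR). In P/Rbf against B1/P, Bcl3 was called higher (0.87, adjusted p = 0.00614 from edgeR) and Cebpb and Cebpd lower (−0.96 and −1.96, adjusted p = 0.0485 and 0.0185). Bcl3 and Cebpd were called in 18 of 18 fits with a single sample left out and Cebpb in 3 (adjusted p = 0.0048 to 0.116 from edgeR), those without B1/P tumor 225070 or P/Rbf tumor 287845 or 287822.

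Extl3, the proposed Reg receptor, was present in all samples, at 78.0 ± 14.2 CPM in B1/P/Rbf, 96.9 ± 32.0 in B1/P, 102 ± 20.8 in P/Rbf tumors and 149 ± 7.16 in glands. It was not called between tumor groups, and was called lower in B1/P/Rbf tumors than in gland (log2 fold change −0.94, adjusted p = 0.00637 from edgeR), where 20.0% of all genes were called lower. In B1/P and P/Rbf tumors against gland Extl3 was −0.62 and −0.55 and missed the threshold (adjusted p = 0.0585 and 0.0855 from edgeR). DESeq2 and limma-voom called it lower in B1/P tumors than in gland, and limma-voom also in P/Rbf tumors. Of the 5 exostosin genes, which otherwise act in heparan sulfate synthesis, Extl1 alone was called lower in B1/P/Rbf against B1/P (−3.69, adjusted p = 0.00287 from edgeR), where 9.29% of all genes were called lower. It was also the only one called in P/Rbf against B1/P (−5.09, adjusted p = 0.000727 from edgeR), where 10.8% were called lower. Without B1/P/Rbf tumor 210906 the first value was −4.86.

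Other antimicrobial and acute phase genes were measured as well. Of 20 such genes 17 were tested, and none was called higher in B1/P/Rbf against B1/P, where the share over all genes was 7.36%, with 0 at an unadjusted p under 0.05 and 0 with DESeq2 or limma-voom. Defb1, a beta-defensin, and Chil1, a chitinase-like lectin, were called lower, with log2 fold changes of −5.97 and −3.68 (adjusted p = 0.0312 and 0.0259 from edgeR), where 9.29% of all genes were called lower, and limma-voom called Chil1 alone. The fold of Defb1 rests on B1/P tumor 246361, without which it was −4.09 on the log2 scale (adjusted p = 0.101 from edgeR), and the call was also lost without B1/P/Rbf tumor 208855, 208857, 208863 or 209490. Chil1 was not called without B1/P/Rbf tumor 208855 or 208863 or B1/P tumor 225068 (highest adjusted p = 0.0596 from edgeR). Without B1/P/Rbf tumor 210906 both were called, at −6.85 and −4.69. Without B1/P/Rbf tumor 208863 edgeR called neither and instead called Fut2, a fucosyltransferase, lower. The median of the list was −1.86, or −1.38 with genes at the floor set to their bounds. Lcn2, an iron-binding acute phase protein, was 206, 648, 287, 241 and 355 CPM in B1/P/Rbf tumors, and the highest value of all samples, 2257 CPM, was in B1/P tumor 225070. That tumor also had the most Saa3 (146.8 CPM), S100a8 (117.9 CPM) and Il1b (99.9 CPM) and, among B1/P tumors, the most Reg3g and Reg1, yet no count of Reg3b. In P/Rbf against B1/P, Nos2 was called higher (2.56, adjusted p = 0.0319 from edgeR) and Chil1 lower (−6.23, adjusted p = 0.00277), among 8.43% of all genes called higher and 10.8% lower. Chil1 stayed called with any single sample left out (−7.49 without P/Rbf tumor 287822). Nos2 was 3.89 without B1/P tumor 225070 and was not called without B1/P tumor 225068, 246361, 255232 or 248662 or P/Rbf tumor 287842 or 290845 (highest adjusted p = 0.0687 from edgeR).

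When B1/P/Rbf tumors were set against P/Rbf tumors, none of the 52 genes tested from these lists was called by edgeR or limma-voom, while 0.281% of all genes were called by edgeR. At an unadjusted p under 0.05 there were 10, and DESeq2 called 3, namely Il11, Il33 and Slpi, all lower in B1/P/Rbf tumors. The same 52 genes gave 8 calls in B1/P/Rbf against B1/P, where 16.7% of all genes were called, and 13 of 51 genes without B1/P tumor 225070 and P/Rbf tumor 287822. This count was 4 without B1/P/Rbf tumor 208863, 5 without tumor 208855, 208857 or 209490 and 14 without B1/P tumor 225070. The genes gave 11 calls between P/Rbf and B1/P tumors, where 19.2% of all genes were called, and 7 without P/Rbf tumor 290845. Against normal gland they gave 18 calls in B1/P/Rbf, 15 in B1/P and 21 in P/Rbf tumors, where 37.0%, 33.8% and 37.7% of all genes were called. The count in B1/P tumors was 8, 8 and 6 without gland 330154, 330155 or 330156, and that in P/Rbf tumors was 13 and 12 without gland 330155 or 330156. Among the calls lost against gland without B1/P/Rbf tumor 208863 were Il18r1 and Cebpd in B1/P/Rbf and Lcn2 in P/Rbf tumors.

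**Figure D4:**
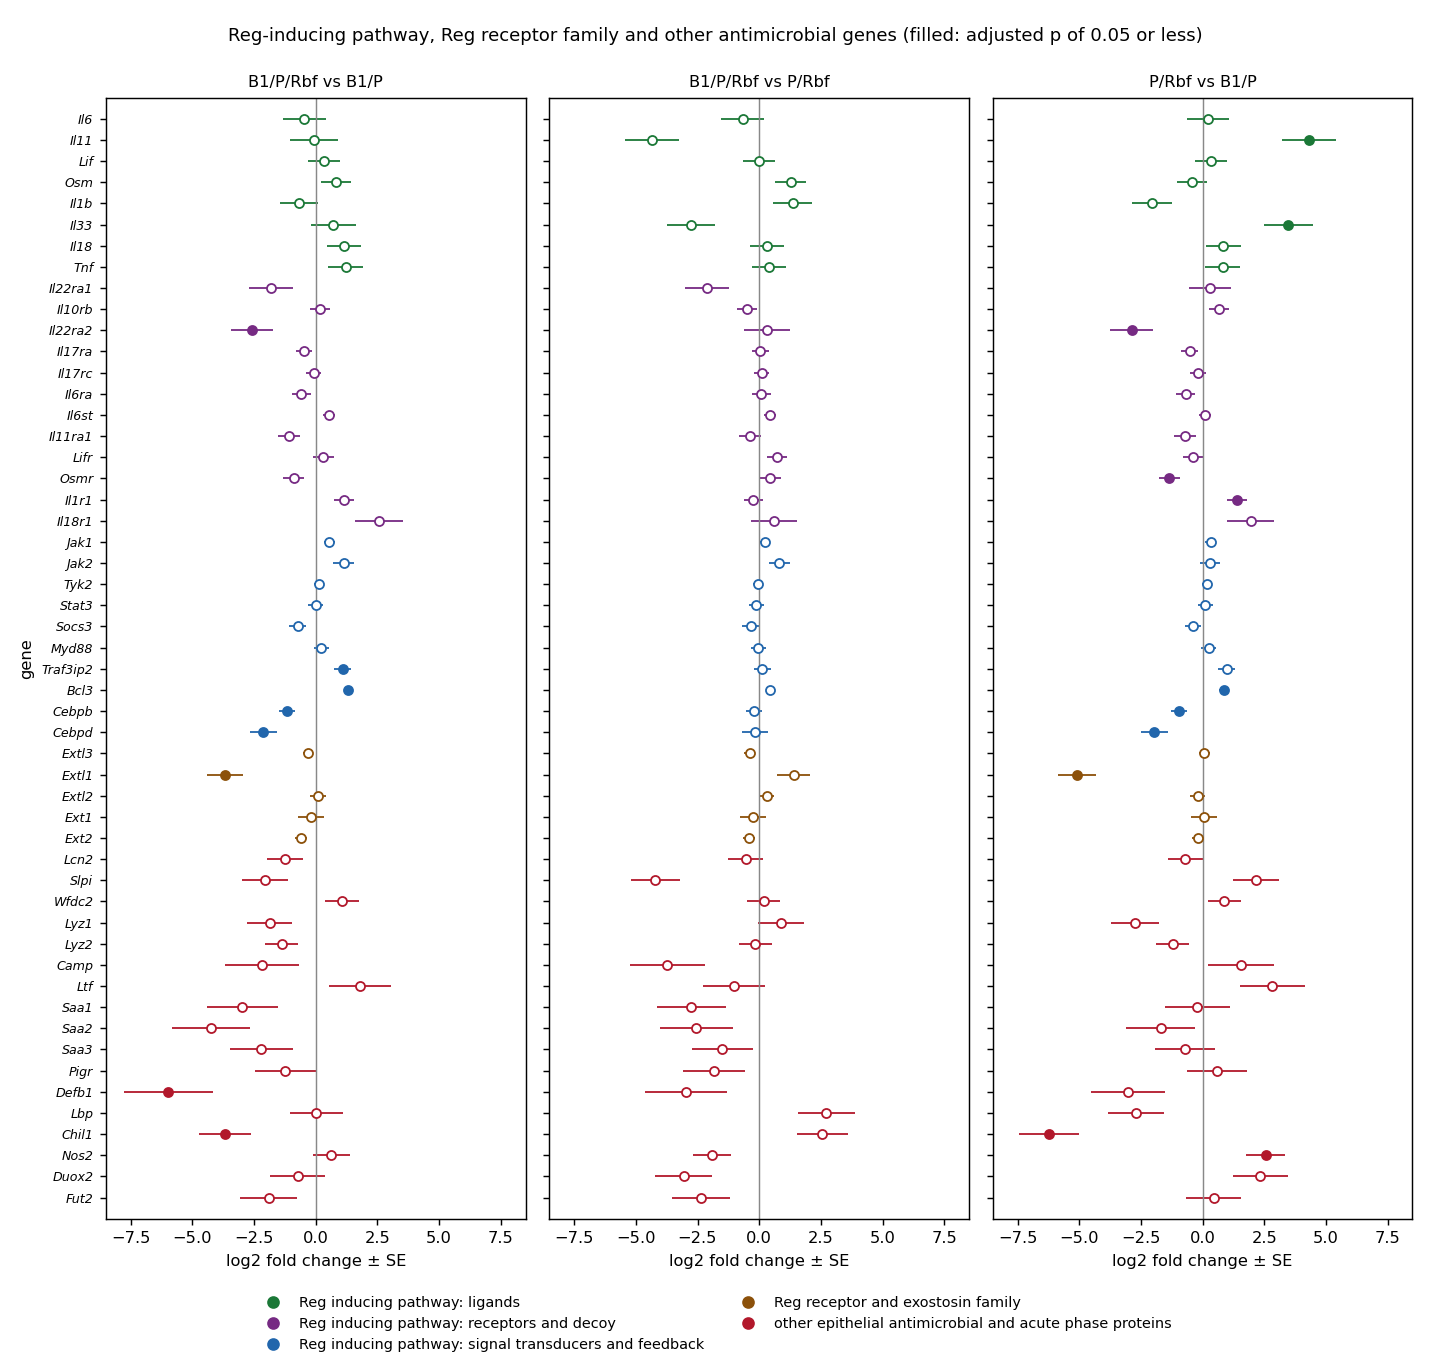
Log2 fold change with its standard error for the 52 tested genes of the Reg-inducing pathway, the exostosin family and the other antimicrobial genes in 3 comparisons of tumor groups (filled circles, adjusted p of 0.05 or less from edgeR). Filled circles number 8 for B1/P/Rbf vs B1/P, 0 for B1/P/Rbf vs P/Rbf and 11 for P/Rbf vs B1/P tumors.

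Markers of the tissues in which Reg genes are usually found were examined in the same libraries. The sum of 15 pancreatic acinar markers was 5.68 to 44.6 CPM in B1/P/Rbf, 8.61 to 18.6 in B1/P and 3.39 to 117 in P/Rbf tumors and 5.28 to 10.8 CPM in glands. In the P/Rbf tumor with the highest sum, 287822, nearly all of it was Bhlha15 (113 CPM), a secretory cell factor that is not confined to the pancreas. This tumor had 0 counts of Reg3b. In B1/P/Rbf tumors 208855, 208857, 208863, 209490 and 210906 Bhlha15 was 38.6, 34.4, 13.5, 3.81 and 4.16 CPM. Among these tumors its order was that of Reg3b. Ptf1a and Sycn had no count in any sample, and Cpb1, Cela3b, Clps and Ctrb1 had at most 2 counts in any group. Other acinar markers were present at low levels. Cpa1 was 0.227 to 0.745 CPM in B1/P/Rbf tumors, at most 0.378 CPM in the other tumors and 0 in glands. Cel was 1.11, 0.594, 0.165, 0.0507 and 3.28 CPM in the B1/P/Rbf tumors and at most 0.592 CPM in any other sample. Of the 7 acinar markers tested, edgeR called Prss2 lower in B1/P/Rbf against B1/P (log2 fold change −5.44, adjusted p = 0.0264) and none higher (2 at an unadjusted p under 0.05), where 9.29% of all genes were called lower and 7.36% higher. The fold of Prss2 rests on B1/P tumor 248662, without which it was −3.55 on the log2 scale (adjusted p = 0.0954 from edgeR). Its call was also lost without B1/P/Rbf tumor 208855, 208857, 209490 or 210906, and it was −6.96 without tumor 208863. Prss2 was 1.98, 0.980 and 11.9 CPM in B1/P tumors 225070, 246361 and 248662 and 1.24 CPM in P/Rbf tumor 287822. Every other sample had at most 0.248 CPM. The gene thus passed the filter on low counts through tumors in which it is high, and its call is not read as a difference. DESeq2 called Prss2 lower and Cel higher, whereas limma-voom called only Cpa1, as higher. The sum of 15 intestinal and gastric markers was 7.91 to 31.9 CPM in B1/P/Rbf, 5.68 to 16.8 in B1/P, 6.23 to 28.1 in P/Rbf tumors and 23.4 to 27.9 CPM in glands. The intestinal factor Cdx2 had 1 count in all samples together, and Fabp1 and Sis were at most 0.0889 CPM in any tumor.

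Of the 7 intestinal and gastric genes tested, edgeR called 1 higher in B1/P/Rbf (7.36% of all genes) and 3 higher in P/Rbf tumors (8.43% of all genes), each against B1/P, and none lower. Fabp2, a fatty acid binding protein of enterocytes, was called in both (log2 fold change 4.92 in B1/P/Rbf, adjusted p = 0.00323, and 3.09 in P/Rbf, adjusted p = 0.0306 from edgeR). Vil1, an actin-binding protein of microvilli, was called in P/Rbf tumors (3.97, adjusted p = 0.0316 from edgeR). That fold rests on P/Rbf tumor 287822, at 20.6 CPM, without which it was 1.64 on the log2 scale (adjusted p = 0.227 from edgeR), and the call was also lost without B1/P tumor 225070, 246361, 255232 or 248662. Tff2, a gastric trefoil peptide, was at least 14.3-fold higher there but at least 3.84-fold without P/Rbf tumor 287845. It passed the filter on low counts only through tumors that carry it, and failed it without P/Rbf tumor 287845 or 290860 or B1/P/Rbf tumor 208863. Its difference is therefore given without a test, although its call is among the 3. Fabp2 stayed called in B1/P/Rbf with any single sample left out, and in P/Rbf it was not called without B1/P tumor 225068, 225070, 246361 or 255232 or P/Rbf tumor 290860 or 290845 (highest adjusted p = 0.0649 from edgeR). Without B1/P tumor 248662 its log2 fold changes were 6.07 and 4.24. Fabp2 had 1.93, 1.65, 0.689, 0.406 and 1.20 CPM in B1/P/Rbf tumors, at most 0.126 CPM in B1/P tumors and 0.0315 to 0.633 CPM in P/Rbf tumors. Glands had at most 0.0655 CPM. Fabp2 thus also passed the filter on low counts only through B1/P/Rbf and P/Rbf tumors that carry it. Its calls, although counted above, are therefore not read as a difference. Muc2, the gel-forming mucin of goblet cells, was called in B1/P/Rbf against B1/P by DESeq2 but not by edgeR (adjusted p = 0.0617). It had 0.539, 6.12, 9.07, 26.9 and 14.3 CPM in the same B1/P/Rbf tumors, the reverse of their order by Reg3b. In P/Rbf tumors Muc2 was 2.10, 0.252, 0.405, 0.579 and 12.0 CPM, and the highest value fell in tumor 290845, where Reg3g was also highest. Neutrophil markers, on a list of 7, summed to 13.5 to 117 CPM in B1/P/Rbf and 7.41 to 541 CPM in B1/P tumors, and none of the 6 tested was called between these groups by edgeR, DESeq2 or limma-voom (0 at an unadjusted p under 0.05). The sum of 9 luminal epithelial markers was 3512 to 6896 CPM in B1/P/Rbf, 645 to 3103 in B1/P and 6157 to 12010 CPM in P/Rbf tumors, and edgeR called 4 of 9 higher in B1/P/Rbf against B1/P (7.36% of all genes). The sum of 7 basal markers was 52.99 to 337, 362 to 2189 and 75.9 to 1453 CPM in the same groups, and 2 of 7 were called lower (9.29% of all genes), or 1 of 7 without tumor 208863. The part of any of these cell types in the Reg levels was not tested.

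The genes whose levels were most like those of Reg3b were ranked by Pearson correlation of log2 CPM over the 18 samples, which share the 4 groups, so that any gene high in B1/P/Rbf tumors alone scores well. Among the 19186 tested genes, with the family left out, Gcg, which encodes glucagon and GLP-1, came first (r = 0.93). Gcg had 227, 842, 357, 0.0507 and 25.0 CPM in B1/P/Rbf tumors and at most 0.441 CPM in any other sample. Its 2 counts in tumor 209490 set that tumor apart from the other B1/P/Rbf tumors, as did the low Reg3b level there. The next genes were Dnali1 (r = 0.92), Cfap53 (0.91), Map3k4 (0.90), Drd2 (0.90), Cfap206 (0.90), Spag6l (0.90), Armc4 (0.90), Cfap44 (0.90) and Vmn1r34 (0.90). Spearman's rho of the 10 genes ranged from 0.39 for Gcg to 0.79 for Vmn1r34. Apart from Gcg and Map3k4, their mean levels were 0.569 to 4.27 CPM in B1/P/Rbf tumors and at most 0.270 CPM in any other group.

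**Figure D5:**
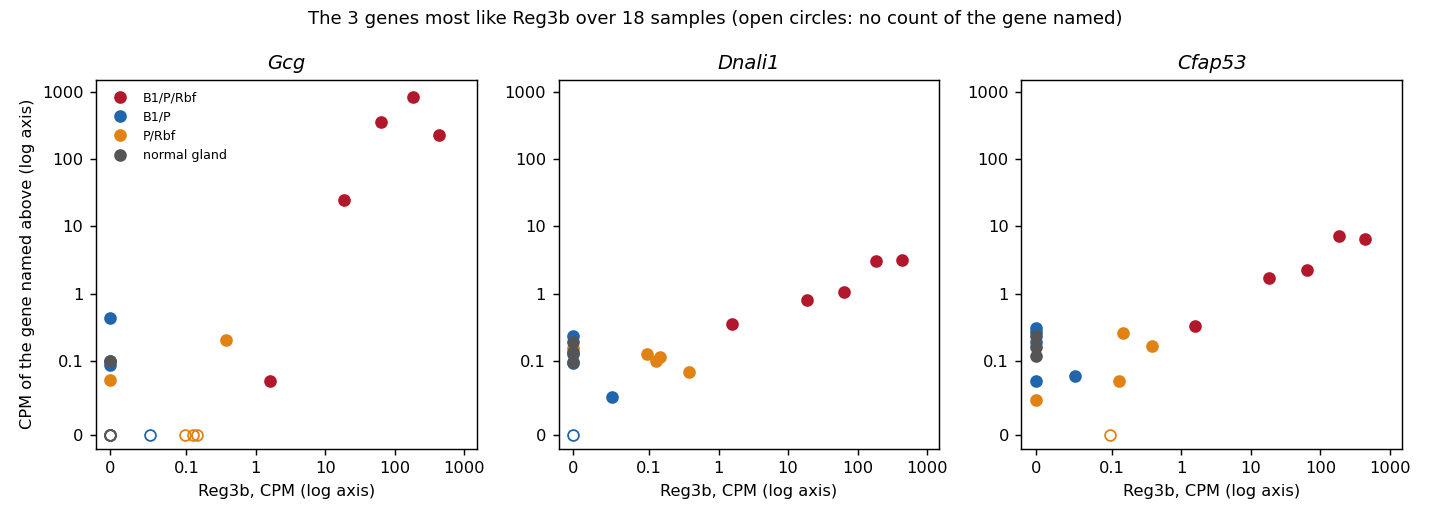
Level of Gcg, Dnali1 and Cfap53 against that of Reg3b in 18 samples, in TMM-scaled CPM on log axes (open circles, no count of the gene named above the panel; zeros drawn at the axis mark 0). The 4 B1/P/Rbf tumors with 18.5 CPM of Reg3b or more have 25.0 to 842 CPM of Gcg, and tumor 209490 has 0.0507.

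Of these 10 genes Map3k4, a stress-activated kinase, was the most abundant over all 3 tumor groups, with 432, 401, 286, 154 and 264 CPM in B1/P/Rbf tumors, 36.9 to 92.8 CPM in B1/P tumors and 44.2 to 149 CPM in P/Rbf tumors. Its order among the 5 B1/P/Rbf tumors was that of Reg3b. Reg3g ranked 12th by the same measure (r = 0.89 over 18 samples and 0.88 over the 15 tumors), while Reg1 had an r of 0.16. With Spearman correlation none of the 10 genes stayed among the first 10, and with Pearson correlation over the 15 tumors 5 did. Within the groups that lack Reg3b, ranks among samples with 0 to 11 counts carry little information.

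Genes next to the cluster were examined to see how far the pattern of Reg3b extended. On one side the nearest protein-coding genes are Ctnna2, 391 kb away, and Lrrtm1, 1113 kb away inside the span of Ctnna2. Ctnna2, a neuronal catenin, had 0.326 ± 0.369 CPM in B1/P/Rbf, 0.181 ± 0.358 in B1/P and 0.00575 ± 0.0129 in P/Rbf tumors (n = 5 each) and 0.336 ± 0.0907 CPM in glands (n = 3). Lrrtm1, a synaptic adhesion gene, had 7.86, 0.809, 9.93, 2.36 and 0.162 CPM in the B1/P/Rbf tumors, at most 0.221 CPM in B1/P and 0.613 CPM in P/Rbf tumors. Its order among the B1/P/Rbf tumors was not that of Reg3b, since tumor 209490 held 2.36 CPM of Lrrtm1 and tumor 208857, second for Reg3b, held 0.809. On the other side Gm20594, 1349 kb away, had no count in any sample, and Lrrtm4, 1550 kb away, had none in any tumor.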

How the data were processed

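The authors prepared stranded mRNA libraries, sequenced them paired-end, trimmed with cutadapt 1.18 and quantified with RSEM 1.3.0. The deposited values are RSEM expected counts per gene, neither normalized nor filtered, and were rounded here. Whether counting used the strand is not given in the sources used here. The study's methods name a human genome and its processing notes name human and mouse builds, whereas all 55450 identifiers are those of mouse GENCODE M21 on GRCm38. In R 4.3.3, edgeR 4.0.16 kept 19186 genes (filterByExpr, minimum count 10), scaled by TMM, and fitted 1 quasi-likelihood model of all 18 samples by group. A gene was called at a Benjamini-Hochberg value no higher than 0.05. Groups with at most 3 counts in every sample were treated as at the floor. Replicate pairs differed beyond counting noise (chi-square per degree of freedom 27.0 to 562 over 33 pairs). Log2 CPM used a prior count of 2. Alternatives were DESeq2 1.42.0, voom with quantile normalization in limma 3.58.1, no TMM, 2 other filters, only the groups compared, each sample left out (for the lists and their genes chosen after seeing the data), and the Reg3 counts summed. The scripts were tested on simulated data. Sequences were compared in Python 3.11.15 with Biopython 1.88.

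Named genes were the 7 members, called genes of the lists (up to 6 a list), Brca1 and Trp53 as checks, and the 10 genes most correlated with Reg3b. The genes bordering the cluster, cell type markers and uncalled genes were named after their values were seen. Members and lists were chosen with earlier results of these data known.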

Additional observations from a re-analysis of the deposited data

Results flagged for a closer look

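In groups of 5 tumors, a sample was singled out when its gap to the nearest other value exceeded 0.71 of the range of the group (Dixon's criterion). A total of 10 combinations of a Reg gene and a tumor group were examined and 2 met it. Combinations with at most 3 counts in every tumor were at the floor and were left out. For normal values chance alone gives about 1 in 20, a rate that need not hold for skewed values near the limit of detection, so both are given as descriptions. Reg3g in P/Rbf tumors did so through tumor 290845, at 88.6 CPM against 4.31 CPM in the next tumor (gap 0.953 of the range). Reg1 in B1/P/Rbf tumors did so through tumor 208855, at 0.851 CPM, or 30 counts, against 0.110 CPM, or 4 counts, in the next (gap 0.870 of the range).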

How the results depend on the processing

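No paired analysis was possible because the groups share no replicate numbers in the labels. Of 402 alternative values 342 kept their direction and side of the threshold, or stayed within 1.5 times for counts. The genes called in B1/P/Rbf against B1/P (3195) numbered 886 with the study's filter (a log2 CPM no lower than 6 in 6 or more samples), 2039 with the compared groups alone and 2315 to 3467 with single samples left out. In B1/P/Rbf against P/Rbf (54) they numbered 1014 with DESeq2, 26 with limma-voom, 3 with the study's filter, 1 with the compared groups alone, 9 to 131 with single samples left out and 7 without B1/P tumor 225070 and P/Rbf tumor 287822, a choice made after seeing the data. In P/Rbf against B1/P (3684) they numbered 867 with the study's filter and 1507 with the compared groups alone. Against normal gland the study's filter gave 1601 calls in B1/P (6481) and 1668 in P/Rbf tumors (7230), and single samples left out gave 4320 to 6633 in B1/P. Without both tumors named above there were 6639. The study's filter tests 4549 genes and leaves no Reg gene, so it gave no value for the members.

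Reg3b and Reg1 passed the filter only through tumors in which they are high and gave no value with the compared groups alone, so their adjusted p values show how the fits vary and support no difference. For Reg3b, DESeq2 lowered the adjusted p to 0.0285 in P/Rbf against normal gland and to 0.0216 against B1/P, and single samples left out gave 0.0825 to 0.297 and 0.0791 to 0.323 in edgeR. The log2 fold change of Reg3g in P/Rbf against normal gland (5.02) was called with DESeq2 (5.00), without TMM (5.29) and without both tumors (5.33). With single samples left out it ranged from 1.38 to 5.42, and its adjusted p in edgeR from 0.033 to 0.435. In P/Rbf against B1/P (4.94) Reg3g was not called with limma-voom (3.00) or with the compared groups alone (4.95). Single samples left out gave 1.30 to 5.60, and leaving out both tumors 5.91. In B1/P against normal gland (0.08) the sign of Reg3g turned with limma-voom (−0.39), without both tumors (−0.58), and without B1/P tumor 225070 (−0.58), B1/P tumor 246361 (−0.27) or gland 330156 (−0.20), over a range of −0.58 to 0.46. For Reg1 in B1/P against normal gland the adjusted p was 0.0375 with DESeq2, 0.0458 without TMM, and 0.0432 to 0.195 in the 15 of 18 edgeR fits with a sample left out in which the gene passed the filter. Of the 52 list genes, 13 instead of 8 were called in B1/P/Rbf against B1/P without both tumors and 4 to 14 with single samples left out. DESeq2 called 3 instead of 0 in B1/P/Rbf against P/Rbf and 17 instead of 11 in P/Rbf against B1/P, where single samples left out gave 7 to 15. Against normal gland they gave 6 to 18 in B1/P (15) and 12 to 26 in P/Rbf tumors (21). The cause of these shifts was not tested. At this depth a count of 0 does not tell absence from a level under 0.0754 to 0.117 CPM.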
